A study of Mus musculus with 2 samples.

Results

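The 9 genes described here encode secreted metalloproteases of the ADAMTS family, which cut proteoglycans and other proteins of the extracellular matrix: *Adamts1*, *Adamts4*, *Adamts5*, *Adamts6*, *Adamts7*, *Adamts9*, *Adamts10*, *Adamts12* and *Adamts15*. They were taken by gene symbol from the deposited tables, where each symbol was found once among 24532 genes. The cells were cardiac myofibroblasts of C57BL/6 mice (C57BL/6J for work on isolated myofibroblasts, per the study's methods), the matrix-producing cells of the injured heart, collected from infarcted tissue 3 days after myocardial infarction (MI) as the adherent cells without the leukocyte marker CD45. One culture received a control siRNA (siCtrl) and the other an siRNA against *Vgll3* (si*Vgll3*), a cofactor of TEAD transcription factors, each at 12.5 nM by lipid transfection, and RNA was taken 72 h later. The study asked what loss of *Vgll3* does to gene expression in these cells. With 1 library per condition, no difference has a replicate check, no test of the conditions was possible, and an effect of the siRNA cannot be told apart from a difference between the 2 cultures. The mice were male, per the study's methods, and whether hearts were pooled is not given in the sources used here.

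ADAMTS proteases are made with a propeptide that proprotein convertases such as furin remove, and each carries a zinc-binding catalytic domain followed by thrombospondin repeats that tie it to the matrix. ADAMTS1, ADAMTS4, ADAMTS5, ADAMTS9 and ADAMTS15 are known for cutting the hyalectans, the large hyaluronan-binding proteoglycans that include aggrecan and versican. Versican is the main hyalectan of the developing and injured heart. ADAMTS7 and ADAMTS12 are a related pair known for cutting cartilage oligomeric matrix protein (COMP), and ADAMTS6 and ADAMTS10 are a pair known for their link to fibrillin microfibrils, so the last 4 are not chiefly proteoglycan-cleaving enzymes.

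Levels are given as TPM, a read count scaled for gene length and library size. M is log2 of the si*Vgll3* TPM over the siCtrl TPM, and A is log2 of the mean TPM of both libraries. Among genes with A > 0, a gene was called lower at M < −0.5 and higher at M > 0.5. Square brackets hold 95% intervals of counting error only, which compare the 2 libraries and not the conditions, since sequenced reads are not independent molecules. The siCtrl library held 140815237 reads on genes and the si*Vgll3* library 125789276, so counting error is small for all members but *Adamts15*. *Vgll3* itself was at 202 TPM in siCtrl against 84.0 TPM in si*Vgll3*, which left 41.6% of the siCtrl level.

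All of the 9 proteases but *Adamts6* had M below 0, so less of their RNA was in the si*Vgll3* library. M was also below 0 for 6700 of the 11754 genes with A > 0. Of the 8 with A > 0, 4 lay below −0.5 (*Adamts12*, *Adamts10*, *Adamts1* and *Adamts5*), 1 lay above 0.5 (*Adamts6*), and 3 lay between (*Adamts4*, *Adamts9* and *Adamts7*). Of all 11754 genes with A > 0, 11.4% were called lower and 5.73% higher. The same 4 and 1 were past the threshold with their whole interval, as were 8.31% of all genes below and 3.76% above. The median M of the 8 genes was −0.51, against −0.05 for all genes. The TPM of the 9 genes summed to 355 in siCtrl and to 231 in si*Vgll3*, so 65.1% was left and the sum had an M of −0.62 [−0.63, −0.61]. *Adamts5* and *Adamts1* made up most of that sum, 70.4% in siCtrl and 71.3% in si*Vgll3*.

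**Figure D1:**
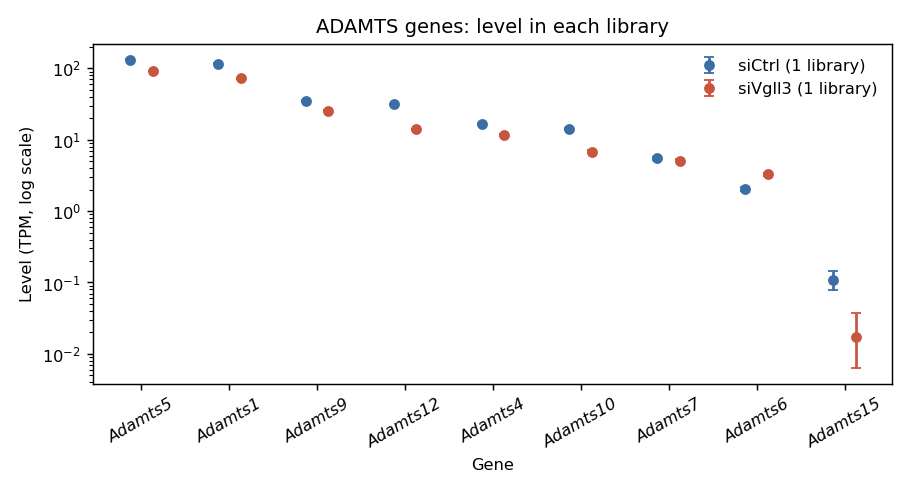
Level of each of the 9 ADAMTS genes in the siCtrl library and the siVgll3 library, in TPM on a log axis, with bars for the 95% Poisson interval of the read count. *Adamts5* is highest at 133 and 91.7 TPM, *Adamts15* is lowest, and only *Adamts6* is higher in siVgll3.

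The order of the levels was the same in both libraries. From the highest to the lowest it ran *Adamts5*, *Adamts1*, *Adamts9*, *Adamts12*, *Adamts4*, *Adamts10*, *Adamts7*, *Adamts6* and *Adamts15*. The counting intervals of neighbours in this order did not overlap in either library, although some steps were small. In siCtrl, *Adamts5* stood 1.13 times above *Adamts1*, and *Adamts9* stood 1.11 times above *Adamts12*. In si*Vgll3* the step from *Adamts9* to *Adamts12* was 1.82 times, and the step from *Adamts12* to *Adamts4* shrank from 1.90 to 1.19 times. Spread between cultures was not measured, so steps of this size have no replicate check.

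The enzymes known for cutting hyalectans had the highest summed level, carried by *Adamts5* and *Adamts1*, although *Adamts4* lay below *Adamts12* and *Adamts15* was lowest of all. Together the 5 genes reached 301 TPM in siCtrl and 202 TPM after si*Vgll3*, which is 84.9% and 87.4% of the sum over all 9. *Adamts5* (NCBI gene 23794), which encodes the main aggrecan-cleaving enzyme of mouse cartilage, lies on chromosome 16 of GRCm38, the assembly also called mm10, from 85858157 to 85901125. The siCtrl library held 68569 of its reads, a level of 133 TPM, and the si*Vgll3* library 43910, a level of 91.7 TPM. This gives an M of −0.53 [−0.55, −0.51]. That lies past the threshold on the TPM scale by little. On the CPM scale, in which counts are divided by the library total alone, the M of *Adamts5* was −0.48, inside the threshold.

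*Adamts1* (NCBI gene 11504), a versican-cleaving enzyme induced by inflammation, lies beside *Adamts5* on chromosome 16, from 85793827 to 85803113. The gap between them is 55.0 kb and holds no protein-coding gene. With 36443 reads it was at 117 TPM in siCtrl, and with 21044 reads at 72.9 TPM in si*Vgll3*. Its M was −0.68 [−0.70, −0.66], lower than that of *Adamts5*. Both neighbours were therefore lower, and the M of *Adamts1* stayed below −0.5 under each of the 6 alternative scalings and pseudocounts tried.

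*Adamts9* (NCBI gene 101401), another versican-cleaving enzyme and the one with the longest coding sequence here, lies on chromosome 6 from 92772699 to 92944450. It was at 35.0 TPM with 13480 reads in siCtrl and at 25.4 TPM with 9067 reads in si*Vgll3*. Its M was −0.46 [−0.50, −0.42], with the lower bound just inside the threshold. *Adamts4* (NCBI gene 240913), the aggrecanase first purified from cartilage, lies on chromosome 1 from 171250129 to 171262267. It was at 16.6 TPM with 6693 reads in siCtrl and at 11.8 TPM with 4402 reads in si*Vgll3*. Its M was −0.49 [−0.55, −0.44], an interval that spans the threshold. *Adamts5*, *Adamts4* and *Adamts9* thus differed little from one another, since the intervals of M of neighbours in that order overlapped, but those of *Adamts5* and *Adamts9* did not, and the threshold falls among the 3.

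*Adamts15* (NCBI gene 235130, chromosome 9 from 30899155 to 30922452), an aggrecan- and versican-cleaving enzyme, was barely detected. Only 41 reads fell on it in siCtrl and 6 in si*Vgll3*, levels of 0.108 TPM and 0.0171 TPM. Its M was −2.66 [−4.19, −1.42], but at an A of −4.00 it did not enter the counts above. Adding 1 TPM to each library brought its M to −0.12. The gene next to it, *Adamts8*, 20.1 kb away, was as sparse, with 33 reads in siCtrl and 14 in si*Vgll3*.

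**Figure D2:**
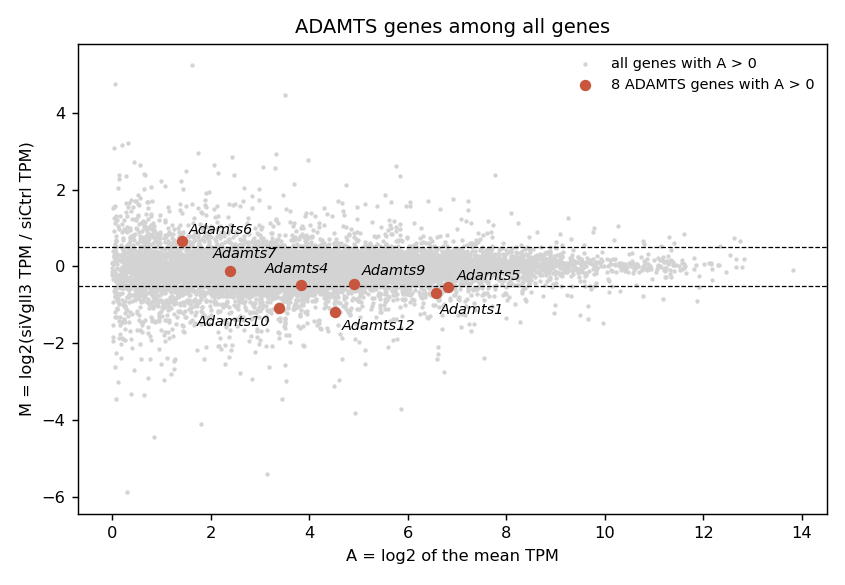
M (log2 ratio of siVgll3 to siCtrl TPM) against A (log2 of the mean TPM) for all 11754 genes with A > 0 in grey and for the 8 ADAMTS genes among them in red, with dashed lines at M of −0.5 and 0.5. *Adamts12* and *Adamts10* lie lowest, *Adamts4*, *Adamts5* and *Adamts9* lie close to the lower line, and *Adamts6* lies above the upper one.

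The COMP-cleaving pair moved unequally. *Adamts12* (NCBI gene 239337), on chromosome 15 from 11064773 to 11349232, was at 31.6 TPM with 17390 reads in siCtrl and at 14.0 TPM with 7122 reads in si*Vgll3*. Its M was −1.18 [−1.22, −1.14], so 44.3% was left, and 2.30% of all genes with A > 0 had a lower M. *Adamts7* (NCBI gene 108153), on chromosome 9 from 90162904 to 90200102, was at 5.49 TPM with 1866 reads in siCtrl and at 5.06 TPM with 1620 reads in si*Vgll3*. Its M was −0.12 [−0.21, −0.02], close to the median of all genes. The TPM of *Adamts12* was 5.76 times that of *Adamts7* in siCtrl and 2.77 times in si*Vgll3*.

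The pair linked to microfibrils moved in opposite directions. *Adamts10* (NCBI gene 224697), on chromosome 17 from 33523646 to 33553782, was at 14.2 TPM with 3794 reads in siCtrl and at 6.76 TPM with 1674 reads in si*Vgll3*. Its M was −1.07 [−1.16, −0.99], and its interval overlapped that of *Adamts12*. *Adamts6* (NCBI gene 108154), on chromosome 13 from 104286518 to 104496695, was at 2.06 TPM with 905 reads in siCtrl and at 3.26 TPM with 1311 reads in si*Vgll3*. Its M was 0.66 [0.54, 0.78], the one value above 0 among the 9, and 96.3% of all genes with A > 0 had a lower M. *Adamts10* had 6.90 times the TPM of *Adamts6* in siCtrl and 2.07 times in si*Vgll3*. The table lists 13 transcripts for *Adamts10*, yet its M from the counts alone, −1.02, was near the TPM value.

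Gene structure divides the set much as function does, except that *Adamts9*, known for cutting hyalectans, falls with the longer genes. In the GENCODE vM21 transcript with the longest coding sequence, *Adamts1*, *Adamts4*, *Adamts5* and *Adamts15* have 8 or 9 exons and 2535 to 2904 coding nucleotides. The other 5 genes have 24 to 40 exons and 3312 to 5793 coding nucleotides. The most abundant pair belongs to the compact genes, while the lowest M among genes with A > 0, −1.18, and the highest, 0.66, both belong to genes of 24 exons. *Adamts5*, *Adamts6* and *Adamts9* overlap predicted or non-coding genes in the RefSeq annotation, so part of their reads may be of uncertain origin.

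The study reported higher miR-29b, a microRNA that represses matrix genes, in cardiac myofibroblasts after *Vgll3* knockdown. The 3′ UTRs of the members were therefore searched for its seed match. The mature sequence below is from the RefSeq microRNA table for GRCm38.p6, with the seed (bases 2 to 8), which miR-29a, miR-29b and miR-29c share, in capitals.
mmu-miR-29b-3p: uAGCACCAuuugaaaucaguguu
The match to that seed, TGGTGCT, occurs on the sense strand in the 3′ UTR of 5 of the 9 genes. Of 10958 genes with A > 0 and a 3′ UTR, 14.3% hold it at least once, and a longer 3′ UTR holds it more often. All 8 matches in the members are printed next, 5′ to 3′ with the match in capitals, because they differ so much in number between the members. The coordinates are those of the 7 matched bases in GRCm38.
*Adamts12*, chr15:11347277-11347283, plus strand: tatccattcagcagaaTGGTGCTa
*Adamts12*, chr15:11347292-11347298, plus strand: atggtgctattgaactTGGTGCTa
*Adamts12*, chr15:11348860-11348866, plus strand: tctggaacaacctatcTGGTGCTc
*Adamts12*, chr15:11348913-11348919, plus strand: catgtcttgagcttctTGGTGCTa
*Adamts10*, chr17:33553691-33553697, plus strand: aggccgttccccatcaTGGTGCTa
*Adamts9*, chr6:92773490-92773496, minus strand: aagaattgtgctgcctTGGTGCTa
*Adamts6*, chr13:104495696-104495702, plus strand: caaaggacagttaactTGGTGCTa
*Adamts15*, chr9:30900832-30900838, minus strand: taggacagaagtaaccTGGTGCTc
An A follows 6 of the 8 matches.

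*Adamts12* holds the most, 4 matches in a 3′ UTR of 3554 nt, the first pair so close that the first match reappears in lower case in the second line. Of 1305 genes with A > 0 and a 3′ UTR within 25% of that length, 32.3% hold at least 1 match and 4 genes (0.307%), itself included, hold 4 or more. *Adamts10* holds 1 match in a 3′ UTR of only 574 nt, and 7.54% of the 1473 genes of like length hold any. *Adamts5* has the longest 3′ UTR of the set, 6437 nt, and holds none, where 45.7% of 350 genes of like length do. *Adamts1*, *Adamts4* and *Adamts7* hold none either.

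The genes with a match had M of −1.18 (*Adamts12*), −1.07 (*Adamts10*), −0.46 (*Adamts9*) and 0.66 (*Adamts6*), and −2.66 for the barely detected *Adamts15*. *Adamts1*, *Adamts5*, *Adamts4* and *Adamts7*, which hold none, had M of −0.68, −0.53, −0.49 and −0.12. Whether the matches bear on M was not tested. A match is a run of letters and not a shown target site, and microRNAs are not measured by these libraries.

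VGLL3 is known to bind TEAD factors. In these cells, though, the study saw no change in fibrotic genes with siRNA against *Tead1* and proposes that TEAD1 is not involved. RefSeq promoter windows of GRCm38.p6 run from 250 bases before to 50 after a transcript start. They were searched on both strands for the TEAD letters GGAATG and the AP-1 letters TGANTCA. Windows were found for *Adamts1*, *Adamts9* and *Adamts12*. None of the 3 holds either motif. GGAATG is in 14.7% and TGANTCA in 7.81% of all 32851 windows, so 3 windows are too few to differ from that background. The other members had no window. These windows were rich in G and C, at 64.7% for *Adamts1*, 70.0% for *Adamts9* and 62.0% for *Adamts12*, against a median of 52.7%.

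Other ADAMTS genes with A > 0 were lower as well. Of the other 10 genes, 3 had A > 0 and all 3 lay below −0.5, against 11.4% of all genes with A > 0. *Adamts2*, which removes the N-propeptide of procollagens, was the most abundant gene of the whole family, at 180 TPM in siCtrl and 120 TPM after si*Vgll3*, with an M of −0.58 [−0.60, −0.57]. *Adamts14*, of the same procollagen-processing group, was at 6.92 and 4.01 TPM, an M of −0.79 [−0.89, −0.69]. *Adamts20*, a relative of *Adamts9*, was at 3.67 and 0.471 TPM, an M of −2.96 [−3.19, −2.74], but its counts of 637 and 222 reads alone gave an M of −1.36. The cause of this gap was not tested.

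**Figure D3:**
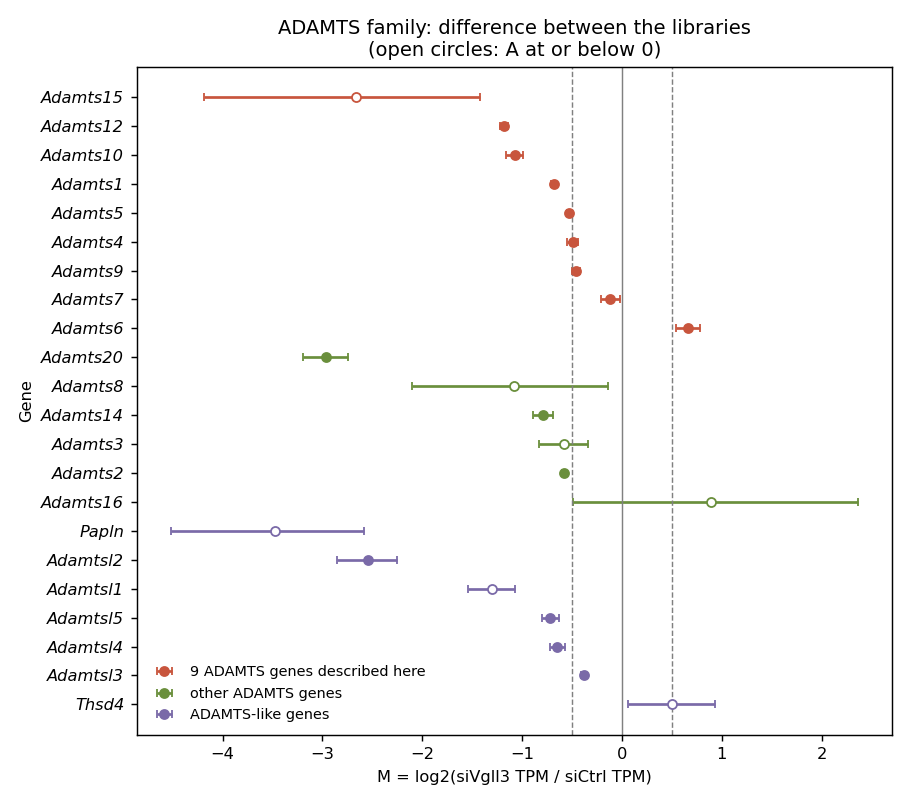
M with its 95% counting interval for each ADAMTS gene with a value, the 9 described here in red, other ADAMTS genes in green and ADAMTS-like genes in purple, with filled circles for A > 0, open circles for A at or below 0 and dashed lines at −0.5 and 0.5. Filled circles lie left of 0 for every gene but *Adamts6*, and the sparse genes have wide bars.

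The remaining family members were at or near 0. *Adamts3*, the third procollagen N-proteinase, was at 0.748 and 0.499 TPM, and *Adamts16* had 8 siCtrl reads against 13 for si*Vgll3*. *Adamts17* had 14 siCtrl reads and 0 for si*Vgll3*, where a count of 0 allows up to 3 reads. *Adamts13*, *Adamts18* and *Adamts19* had 0 reads in both libraries, which allows up to 3 reads in each. Over the family as a whole, 7 of the 11 genes with A > 0 lay below −0.5 and 1 above 0.5, with a median M of −0.58. Among all genes with A > 0, 11.4% lay below −0.5 and 5.73% above 0.5.

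ADAMTS-like proteins share the thrombospondin repeats but lack the protease domain. Of 7 such genes, 4 had A > 0, and 3 of these lay below −0.5, against 11.4% of all genes with A > 0. *Adamtsl3* was the most abundant, at 71.6 TPM in siCtrl and 54.9 TPM after si*Vgll3*, with an M of −0.38 [−0.41, −0.36]. *Adamtsl4*, which binds fibrillin microfibrils, was at 14.9 and 9.51 TPM, an M of −0.65. *Adamtsl5* was at 14.3 and 8.71 TPM, an M of −0.72, and *Adamtsl2*, another microfibril-binding protein, was at 3.37 and 0.577 TPM, an M of −2.55. *Adamtsl1*, *Thsd4* and *Papln* had reads but an A at or below 0, with 1.11, 0.142 and 0.440 TPM in siCtrl.

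The main hyalectan substrate went the other way from the enzymes. *Vcan*, which encodes versican, was at 106 TPM with 65954 reads in siCtrl and at 138 TPM with 78812 reads in si*Vgll3*. Its M was 0.38 [0.37, 0.40], inside the threshold of 0.5, although 91.7% of all genes with A > 0 had a lower M. *Adamts1* had 1.11 times the TPM of *Vcan* in siCtrl and 0.530 times in si*Vgll3*, and for *Adamts5* the ratio was 1.26 and 0.666. These are ratios of transcript levels and say nothing of the amount or activity of the proteins. *Acan*, which encodes aggrecan, was at 0.518 and 0.239 TPM, and *Hapln4*, a link protein gene, at 1.02 and 0.406 TPM, so versican was the 1 gene of 8 hyalectans and link proteins with A > 0.

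Other proteins that ADAMTS enzymes are reported to cut were mostly lower. Of 12 such genes with A > 0, 7 lay below −0.5 and 1 above 0.5, with a median M of −0.62. Over all genes with A > 0, 11.4% lay below −0.5 and 5.73% above 0.5. *Comp*, the substrate of ADAMTS7 and ADAMTS12, was at 4.20 and 1.85 TPM, an M of −1.18 [−1.39, −0.97], the same to 2 decimals as that of *Adamts12*. The microfibril genes *Fbn1* and *Fbn2* were at 651 and 457 TPM and at 8.62 and 2.96 TPM, with M of −0.51 and −1.54. On the CPM scale the M of *Fbn1* was −0.46, inside the threshold. The proteoglycan gene *Fmod* had the lowest M, −3.11, at 40.5 and 4.69 TPM. *Matn3*, *Thbs2* and *Nid2* had M of −1.76, −0.92 and −0.73.

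The most abundant substrates moved less or the other way. *Fn1*, which encodes fibronectin, was at 4977 and 5115 TPM, an M of 0.04. *Bgn*, which encodes the small proteoglycan biglycan, was at 5155 and 4065 TPM, an M of −0.34. *Thbs1*, which encodes thrombospondin 1, was at 1425 and 2119 TPM, an M of 0.57, the 1 substrate called higher.

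**Figure D4:**
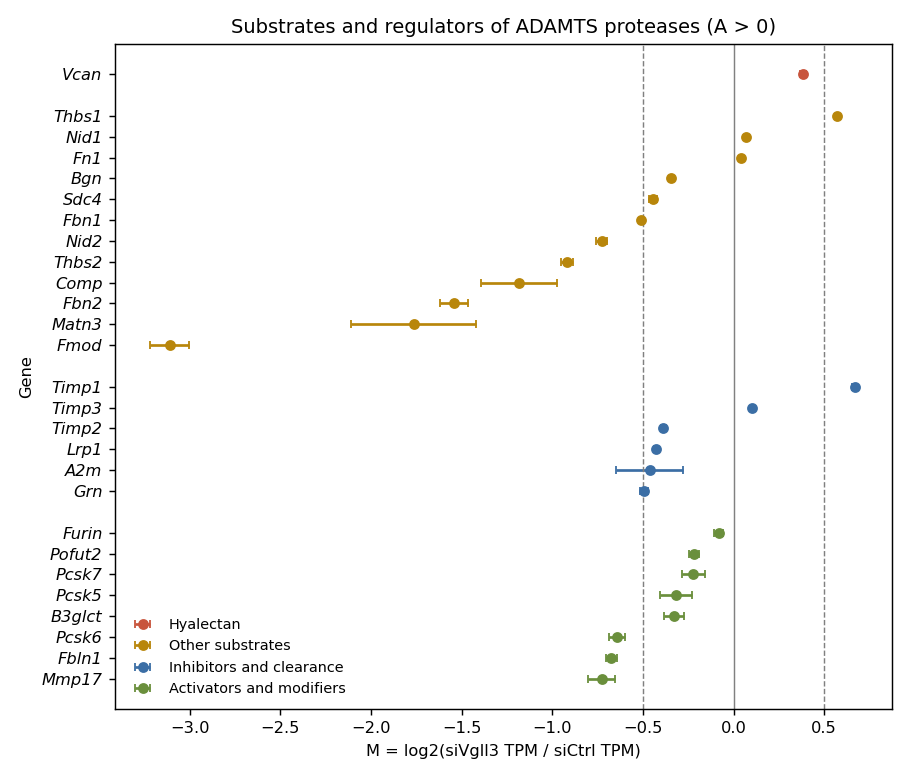
M with its 95% counting interval for substrates of ADAMTS proteases (red and gold), inhibitors and clearance genes (blue) and activators and modifiers (green) with A > 0, with dashed lines at −0.5 and 0.5. *Vcan*, *Thbs1* and *Timp1* lie to the right of 0, *Timp3* close to it, and all 8 activators and modifiers to the left.

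Of 6 genes with A > 0 listed as inhibitor or clearance genes, 1 lay above 0.5 and 0 below −0.5. Over all genes with A > 0, 5.73% lay above 0.5 and 11.4% below −0.5. The median M of the 6 was −0.41. The *Timp* genes were listed as a family, and how well each of their products inhibits each ADAMTS enzyme was not examined. *Timp3*, which encodes the main tissue inhibitor of ADAMTS4 and ADAMTS5, was at 1200 and 1288 TPM, an M of 0.10 [0.10, 0.11]. *Timp1* was at 1363 and 2167 TPM, an M of 0.67, and *Timp2* at 513 and 392 TPM, an M of −0.39. The TPM of *Adamts5* was 0.110 times that of *Timp3* in siCtrl and 0.0712 times in si*Vgll3*. *Timp4* had 0 reads in both libraries.

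The 8 genes that activate or modify the enzymes all had an M below 0, as did 6700 of all 11754 genes with A > 0. Of the 8, 3 lay below −0.5, against 11.4% of all genes with A > 0. *Furin*, which encodes the convertase that removes the propeptide, was at 111 and 105 TPM, an M of −0.08. *Pofut2*, which adds fucose to thrombospondin repeats, was at 155 and 133 TPM, an M of −0.22. The genes called lower were *Pcsk6*, another convertase, with an M of −0.64, *Mmp17*, which encodes a membrane-bound activator of ADAMTS4, with −0.73, and *Fbln1*, which encodes a cofactor of ADAMTS1, with −0.67. Over inhibitors and activators together, the median M was −0.36 over 14 genes.

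Markers of the labelled cell type were abundant, and all 9 myofibroblast and fibroblast markers had A > 0. Summed, they reached 11996 TPM in siCtrl and 10634 TPM after si*Vgll3*. *Acta2* and *Tagln*, smooth-muscle genes of myofibroblasts, had M of 0.23 and 0.52, while *Col1a1*, *Postn*, *Tcf21* and *Thy1* had M of −0.90, −1.22, −0.58 and 0.72. Of 10 leukocyte markers, 4 had A > 0, their sum was 15.0 and 8.46 TPM, and *Ptprc*, *Itgam*, *Adgre1* and *Cd3e* had 0 reads. The 3 called among them were *Lyz2*, *Csf1r* and *Cd14*, with M of −1.80, 0.50 [0.29, 0.72] and 0.62 [0.32, 0.92], the last pair with intervals that span the threshold. Of 8 cardiomyocyte markers, 6 had 0 reads, among them *Myh6* and *Ttn*, while *Tnnt2* was at 60.0 and 10.4 TPM.

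Markers of other cells of the heart summed to far less than the myofibroblast markers, but some reached the levels of the ADAMTS genes. In siCtrl, *Upk3b* was at 31.6 TPM, as was *Adamts12*, and *Tek* was at 19.5 TPM, against 16.6 TPM for *Adamts4*. Endothelial markers summed to 27.2 TPM in siCtrl and 22.8 TPM after si*Vgll3*, led by *Tek* with an M of −0.54, while *Cdh5* and *Emcn* were at 0.50 and −0.02. Mural cell markers summed to 22.3 and 11.7 TPM, and *Notch3* and *Des* had M of −0.82 and −1.21. Mesothelial markers summed to 56.1 and 41.3 TPM, with *Upk3b*, *Lrrn4* and *Wt1* at −1.68, −1.67 and −0.67 and *Krt19* and *Msln* at 2.56 and 1.91. The part of such cells in the ADAMTS levels and in the differences was not tested. In cultures, fewer cells of a type and less RNA per cell cannot be told apart.

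Over the 2 libraries, the genes whose levels lay closest to those of *Adamts5* were *Nfix*, *Gosr2* and *Plat*, at distances of 0.03, 0.03 and 0.04 on the log2 TPM scale. *Plat*, which encodes tissue plasminogen activator, was at 131 and 93.9 TPM. The distances rest on 2 values per gene, so the likeness is a description only.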

How the data were processed

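RNA was measured in 2 libraries of cultured mouse cardiac myofibroblasts, 1 treated with siCtrl and 1 with si*Vgll3*. According to the methods and the submitters' processing notes, the authors prepared TruSeq Stranded mRNA libraries, ran FastQC, removed adapters, low-quality bases and short reads with Trimmomatic, used HISAT2 to map to mm10, and assembled the known genes in StringTie. Versions are not given in the sources used here. The authors deposited raw read counts per gene, without normalization. A second kind of file the authors deposited holds TPM, scaled for length and library size, for 14158 of the 14513 genes with a read in both libraries. M could be computed for 14149 genes. Comparisons used TPM with no pseudocount. The interval of M is the 95% Clopper-Pearson interval of the count ratio, conditional on the sum of both counts and shifted onto the TPM ratio, and that of a level is an exact Poisson interval (scipy 1.17.1). The interval was tried on simulated counts drawn with counting error only, the error it assumes, so that trial says nothing of spread between cultures. No p-value was computed. EdgeR 4.0.16 (TMM) and DESeq2 1.42.0 (size factors) were used for alternative scalings only. Other alternatives were CPM, 0.1 TPM or 1 TPM added, centred M, no filter on A, A > 2, at least 10 reads in each library, a threshold of 1, and intervals wholly past the threshold. Gene positions came from RefSeq (GRCm38.p6) by gene ID, and 3′ UTRs from GENCODE vM21. Protein sequences were not used here.

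The 9 genes and the lists of relatives, substrates, regulators and markers were chosen with earlier results of these data known. Named genes are the 9, *Vgll3*, every other ADAMTS or ADAMTS-like gene with a read, of each other list the 3 with the largest mean TPM and those past the threshold, and the 3 genes closest in level to the most abundant of the 9. Other genes were named after their values were seen.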

Additional observations from a re-analysis of the deposited data

How the results depend on the processing

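No paired analysis was possible because there is 1 library per condition, with no second replicate number. With CPM, TMM scaling, DESeq2's size factors or M centred on the median in place of TPM, *Adamts5* moved inside the threshold (−0.48, −0.49, −0.49 and −0.49), which leaves 3 of the 9 genes called lower, the substrate *Fbn1* was no longer called lower, and M of the sum over the 9 genes was −0.56, −0.57, −0.57 and −0.57. It was −0.60 with 1 TPM added to both libraries. With CPM, TMM scaling or DESeq2's size factors, *Acan* and *Hapln4* entered the substrates called lower, which made 8 against 7 on the TPM scale. In the family, *Adamts3* took the place of *Adamts5* under these scalings, so 7 genes stayed lower. With M centred on the median, 6 substrates and 6 family genes were lower. *Adamts6* was not called higher with 1 TPM added, with A > 2 or with a threshold of 1, which gave 0 genes higher among the 9 and in the family each time. A threshold of 1 left 2 of the 9 genes lower, 3 of the family, 4 substrates and 0 regulators, with 0 substrates and 0 regulators higher. Without a filter on A, 2 family genes and 2 substrates were higher. Over all genes, leaving out the filter gave 2103 lower and 1428 higher, a threshold of 1 gave 384 and 207, A > 2 gave 393 higher and whole intervals gave 442 higher. Each of these filters changes the genes counted or the bar they must pass. No member changed sign under any of the 6 alternative scalings and pseudocounts. The median M of all genes shifted by at most 0.05 between scalings. Among the 9 genes, depth limits *Adamts15* most.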
